A study of Mus musculus with 12 samples.

Results

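The 6 microRNA hairpins known from blood cells, immune cells and vessels that are described here, miR-126, miR-142, miR-146a, miR-150, miR-155 and miR-223, were followed across mouse embryonic fibroblasts (MEFs), embryonic stem cells (ESCs) and reprogrammed pluripotent cells. Any arm of these hairpins was taken by its name, which gave 12 of the 1042 mature miRNAs in the table. They were mmu-miR-126-3p, mmu-miR-126-5p, mmu-miR-142-3p, mmu-miR-142-5p, mmu-miR-146a-5p, mmu-miR-146a-3p, mmu-miR-150-5p, mmu-miR-150-3p, mmu-miR-155-5p, mmu-miR-155-3p, mmu-miR-223-3p and mmu-miR-223-5p, where mmu stands for mouse and is left out from here on. The names 3p and 5p give the end of the hairpin that the mature miRNA comes from. Of the 12, 11 had at least 10 reads in at least 2 libraries and were tested. The exception was miR-146a-3p, with 1 read in ESC replicate 2, 1 read in NT-iPSC replicate 52 and 0 reads in the other 10 libraries.

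Small RNA was sequenced in 12 libraries, 3 of MEFs, 3 of ESCs and 2 of each reprogrammed type, namely iPSCs, NT-ESCs and NT-iPSCs. The MEFs came from C57B6/129SvJae F1 mice, and all 3 reprogrammed types were made from these same fibroblasts. The iPSCs were made with dox-inducible lentiviral Oct4, Sox2, Klf4 and c-Myc. For the NT-ESCs a MEF nucleus was placed in an enucleated oocyte, and for the NT-iPSCs an iPSC nucleus was. The ESCs were the line E14 of strain 129/ola. All pluripotent cells were grown on irradiated MEF feeder cells with LIF, a cytokine that maintains mouse pluripotent cells. Each type was a single line, and its replicates were batches of RNA. The limma p-values below thus measure the spread between batches and not between lines. The permutation tests of reprogrammed cells pooled 2 batches from each of 3 lines and treated all libraries as independent. Their p-values cleanly measure neither the spread between batches nor that between lines.

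The ESC line differs from the other cells in strain as well as in origin. In the study's account of its reads, the reprogrammed libraries stand apart from the MEF and ESC libraries in total reads and in adaptor measures. Each of these sets holds its own cell types alone. In comparisons with ESCs a difference of strain cannot be told apart from a difference of cell type. Between reprogrammed cells and MEFs or ESCs the same holds for a difference of library handling. The reads on miRNAs, recovered from the deposited values, numbered 7867514 to 8608689 per MEF library, 4863365 to 5771398 per ESC library and 5293867 to 7567263 per reprogrammed library. With such totals 3 reads stand for 0.348 to 0.617 CPM, that is reads scaled to a common miRNA total. Intervals and lower bounds below cover counting error only, since amplified reads are not independent molecules. In bulk RNA, fewer cells that hold a miRNA and less of it per cell cannot be told apart.

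The labelled cell types were checked against their marker miRNAs. The 16 pluripotency markers found in the table, from the miR-290 and miR-302 clusters, summed to between 0.890 and 12.9 CPM in MEFs, where 6 of them had 0 reads, to 101419 to 121413 CPM in ESCs and to 134406 to 206451 CPM in reprogrammed cells. The 8 fibroblast markers of the miR-143, miR-145, miR-199 and miR-214 families summed to 21255 to 71272 CPM in reprogrammed cells, 64968 to 99040 CPM in MEFs and 40199 to 44082 CPM in ESCs. By member, 8 of 8 were higher in MEFs than in ESCs (median difference 3.37 on the log2 scale described below), and in reprogrammed cells 0 were higher and 6 lower than in MEFs (median -3.63), and 4 higher and 4 lower than in ESCs (adjusted p under 0.05, limma). Among the 8, miR-199a-3p and miR-199b-3p had nearly the same means, 18.56 and 18.52 in MEFs and 18.82 for both in reprogrammed cells. Whether they count the same reads was not tested, so the 8 may not be separate markers. Fibroblast miRNAs were present in every pluripotent library. All of these were grown on fibroblasts, whose part in the levels was not tested. The 4 red blood cell markers found in the table summed to 32.9 to 52 CPM in MEFs, above the 12.5 to 15.4 CPM of ESCs and the 12.99 to 19.6 CPM of reprogrammed cells, with miR-144-3p at 0 reads in MEFs and in ESCs. The MEF sum was mostly miR-486-5p, at 29.2 to 47.3 CPM, and of the 3 markers tested that was the 1 higher in MEFs than in ESCs, with 0 lower. The macrophage markers, both arms of miR-511, reached 14.2 to 31.9 CPM in MEFs and at most 3.33 CPM elsewhere.

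A miRNA is cut from a hairpin RNA by Drosha and Dicer into a short duplex, and usually a single arm of the duplex is loaded into an Argonaute protein while the other is degraded. The loaded arm pairs with target mRNAs mainly through its seed, bases 2 to 8 from the 5′ end. miR-126 lies in Egfl7, a gene of the endothelium, and is known for its role in vessels, whereas miR-142 is found throughout the blood lineage. miR-150 is high in mature lymphocytes, where it represses c-Myb, and miR-223 is the classic miRNA of granulocytes and their precursors. miR-155 and miR-146a are induced in activated immune cells, the second as a brake on signalling through Traf6 and Irak1.

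The mature sequences below are those the results turn on, and each arm of a hairpin has its own seed. They are those of RefSeq for GRCm38.p6, in which 10 of the 12 miRNAs were matched, and the seed is in capitals. The hairpins of miR-126 and miR-142 are called miR-126a and miR-142a there.
miR-126-3p: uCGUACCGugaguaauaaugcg
miR-142-3p: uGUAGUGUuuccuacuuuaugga
miR-142-5p: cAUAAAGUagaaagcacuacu
miR-146a-5p: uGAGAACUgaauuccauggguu
miR-146b-5p: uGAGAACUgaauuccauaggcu
miR-150-3p: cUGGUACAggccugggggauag
miR-155-5p: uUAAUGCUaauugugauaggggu
miR-223-3p: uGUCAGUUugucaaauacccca
The 10 matched miRNAs had 10 different seeds, so no seed was shared among them. The paralog miR-146b-5p, which is not a member, shares the seed of miR-146a-5p and is shown for that comparison.

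By the annotation of GENCODE M21 for GRCm38, the hairpin of miR-126 (chr2:26591357-26591429, plus strand) lies within Egfl7, where an exon of an annotated transcript overlaps it. The hairpin of miR-142 (chr11:87756864-87756927, plus strand) lies in an intron of the long non-coding RNA Mir142hg, and that of miR-155 (chr16:84714140-84714204, plus strand) in an exon of Mir155hg. That of miR-223 (chrX:96242817-96242926, plus strand) overlaps an exon of the non-coding gene F630028O10Rik. The hairpins of miR-146a (chr11:43374397-43374461, minus strand) and miR-150 (chr7:45121757-45121821, plus strand) overlap no other annotated gene. Of the 6 hairpins, only those of miR-142 and miR-146a lie on the same chromosome.

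Together the 12 miRNAs were a minor part of the miRNA reads. They made up 0.172% ± 0.00984 (SD, n = 3) in MEFs, 0.378% ± 0.0200 (SD, n = 3) in ESCs, 0.0741% ± 0.00283 (SD, n = 2) in NT-ESCs, 0.0828% ± 0.000763 (SD, n = 2) in iPSCs and, with n = 2, 0.0871% ± 0.000146 in NT-iPSCs. ESCs thus held the highest share and the reprogrammed cells the lowest, with no overlap between MEFs, ESCs and reprogrammed libraries. The levels below are the deposited values on the log2 scale after the variance stabilizing transformation (VST), and a difference is the first group's mean VST minus the second's. The VST compresses changes at low read numbers. Differences were tested with limma in 1 model of all 12 libraries, with Benjamini-Hochberg adjustment over 732 miRNAs.

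Between MEFs and ESCs all 11 tested members passed an adjusted p of 0.05, 4 higher and 7 lower in MEFs, where 79.0% of all 732 miRNAs passed, 39.1% higher and 39.9% lower. All 11 were also without overlap between the libraries of the groups, against 79.9% of the 732. Of the 11, miR-155-3p and miR-223-3p passed the filter on reads only with the MEF libraries, where they were highest. For reprogrammed cells, taken as the mean of the 3 type means, against ESCs, 9 of 11 passed, 4 higher and 5 lower in reprogrammed cells, against a background of 82.0% (44.0% higher and 38.0% lower), and 7 of 11 did not overlap against 71%. Between reprogrammed cells and MEFs, 11 of 11 passed, 3 higher and 8 lower, against 88.9% (48.5% higher and 40.4% lower), and 11 of 11 did not overlap against 80.6%. The median absolute difference of the 11 was 2.61 between MEFs and ESCs, 2.45 between reprogrammed cells and ESCs and 3.35 between reprogrammed cells and MEFs, beside 1.74, 2.00 and 2.75 over all miRNAs tested. The arms of a hairpin share their source, and the results that follow are the patterns of single members. Comparisons that share the ESC or the reprogrammed libraries are not independent of each other.

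**Figure D1:**
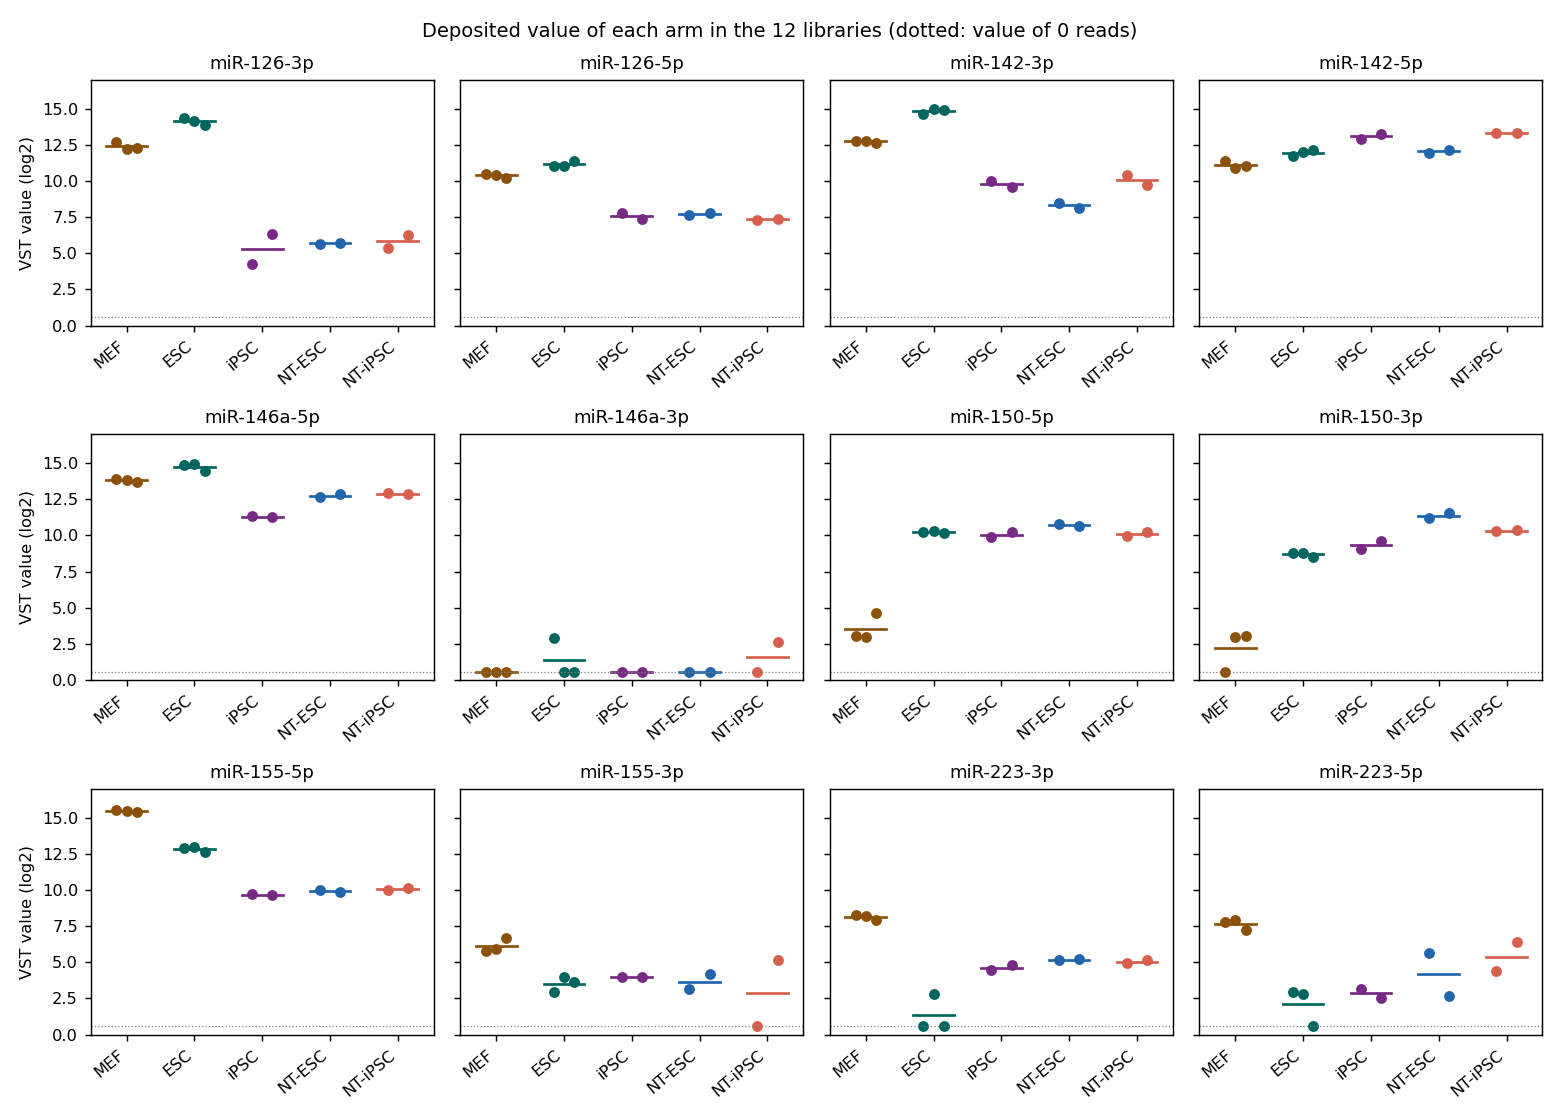
Deposited VST value (log2 scale, y axis) of each of the 12 arms in the 12 libraries, grouped by cell type on the x axis, with a point per library, a line at the group mean and a dotted line at the value of 0 reads. miR-126-3p falls from at least 885 reads per library in MEFs and ESCs to 5 to 24 in reprogrammed cells, miR-142-5p does not fall with miR-142-3p, and both arms of miR-150 are near the dotted line in MEFs alone.

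miR-126, the endothelial miRNA, was lower in every reprogrammed library than in every MEF and ESC library, and its 3p arm more so than its 5p arm. miR-126-3p had 1172, 885 and 921 reads in the MEF libraries and 4357, 4200 and 3278 in the ESC libraries. In the reprogrammed cells it had 5 and 24 reads in iPSCs, 16 and 13 in NT-ESCs and 11 and 21 in NT-iPSCs. Its mean VST was 14.14 ± 0.23 over the 3 ESC libraries (SD), 12.39 ± 0.27 over the 3 MEF libraries (SD) and 5.59 ± 0.76 (SD, n = 6) in the reprogrammed libraries. The difference between reprogrammed cells and ESCs was -8.55 (standard error 0.38, adjusted p = 1.9e-09, limma), which in normalized reads was a level 362-fold higher in ESCs. Against MEFs, reprogrammed cells stood at -6.80 (adjusted p = 8.6e-09), and MEFs stood at -1.75 against ESCs (standard error 0.44, adjusted p = 0.0035). The order of the types was ESCs, MEFs and then the 3 reprogrammed types, whose libraries overlapped each other.

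miR-126-5p, the other arm of the same duplex, had 258, 259 and 217 reads in MEFs, 422, 488 and 573 in ESCs, 70 and 51 in iPSCs, 66 and 57 in NT-ESCs and 44 and 46 in NT-iPSCs. It followed the same order, but the gap between ESCs and reprogrammed cells was smaller. The difference was -3.60 (standard error 0.16, adjusted p = 2.4e-09), with a level 12.3-fold higher in ESCs. Between MEFs and ESCs it was -0.77 (standard error 0.19, adjusted p = 0.0033), and this call was lost with upper quartile scaling of the reads (-0.13, adjusted p = 0.55).

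The 3p arm of miR-126 was the major arm in MEFs and ESCs and the minor arm in every reprogrammed library. The 5p share, the 5p reads as a percentage of the reads of both arms, was 19.9% ± 2.41 over the 3 MEF libraries and 11.4% ± 3.14 over the 3 of ESCs (SD). In the reprogrammed libraries it ran from 68.0% to 93.3%, with exact 95% binomial intervals from 56.2% to 97.8%. The mean difference between reprogrammed cells and ESCs was 67.3 percentage points (exact permutation, two-sided, p = 0.0238, which 6 libraries against 3 cannot go below, adjusted p = 0.0342 over 273 hairpins). With 1 of these 9 libraries left out the difference was 64.3 to 69.4 points and the adjusted p 0.0497 to 0.1004. The call was kept without iPSC replicate 62 or NT-iPSC replicate 51 and lost without each of the other 7. The groups never overlapped, so each p was the lowest that the remaining libraries allow. Which calls were kept thus turned on the number of libraries and on the other hairpins tested, not on miR-126. Against MEFs it was 58.7 points (exact permutation test, adjusted p = 0.0363 over 233 hairpins). MEFs exceeded ESCs by 8.54 points without overlap, but 3 libraries against 3 cannot give a p below 0.1 (exact permutation test, adjusted p = 0.28).

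miR-142, the miRNA of the blood lineage, showed the widest split between arms of the 6 hairpins. miR-142-3p had 1236, 1337 and 1179 reads in MEFs, 5251, 7452 and 6521 in ESCs, 319 and 238 in iPSCs, 117 and 75 in NT-ESCs and 389 and 231 in NT-iPSCs. It was highest in every ESC library, lower in MEFs and lowest in NT-ESCs. Reprogrammed cells differed from ESCs by -5.46 (standard error 0.18, adjusted p = 1.3e-10), a level 38.4-fold higher in ESCs, and from MEFs by -3.35 (adjusted p = 4.9e-09). MEFs differed from ESCs by -2.10 (standard error 0.20, adjusted p = 2.1e-06).

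miR-142-5p ran the other way in the mean of the reprogrammed cells, though not between MEFs and ESCs. Its reads were 467, 364 and 377 in MEFs, 697, 937 and 960 in ESCs, 2453 and 3036 in iPSCs, 1297 and 1206 in NT-ESCs and 2936 and 2921 in NT-iPSCs. Reprogrammed cells exceeded ESCs by 0.87 (standard error 0.15, adjusted p = 0.00018) and MEFs by 1.73 (adjusted p = 3.5e-07). iPSCs exceeded ESCs by 1.13 (adjusted p = 0.00020) and NT-iPSCs did so by 1.40 (adjusted p = 3.7e-05), but in NT-ESCs the excess was 0.09 with overlapping libraries (standard error 0.19, adjusted p = 0.68). MEFs stood at -0.85 against ESCs (standard error 0.17, adjusted p = 0.00069), and at -0.22 with upper quartile scaling, which ended the call (adjusted p = 0.21).

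Summed over its arms, miR-142 had 5948, 8389 and 7481 reads in ESCs, 1703, 1701 and 1556 in MEFs and 1281 to 3325 in the reprogrammed libraries. The 3p arm, with the seed GUAGUGU, held most of these reads in MEFs and ESCs. In each reprogrammed library the 5p arm, with the seed AUAAAGU, held most of them. The 5p share was 24.4% ± 3.01 (SD, n = 3) in MEFs, 11.9% ± 0.85 (SD, n = 3) in ESCs, 92.9% ± 1.71 (SD, n = 2) in NT-ESCs, 90.6% ± 3.0 (SD, n = 2) in iPSCs and, with n = 2, 90.5% ± 3.09 in NT-iPSCs. The difference between reprogrammed cells and ESCs was 79.4 points (exact permutation, two-sided, p = 0.0238, adjusted p = 0.0342), and here too the call was lost without each of the same 7 libraries (78.9 to 79.9 points, adjusted p up to 0.1004). From MEFs they differed by 67.0 points (exact permutation test, adjusted p = 0.0363), and MEFs from ESCs by 12.4 points (exact permutation test, p = 0.1, adjusted p = 0.28). NT-ESCs, which had the lowest levels of both arms among the reprogrammed types, overlapped the other types in this share.

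**Figure D2:**
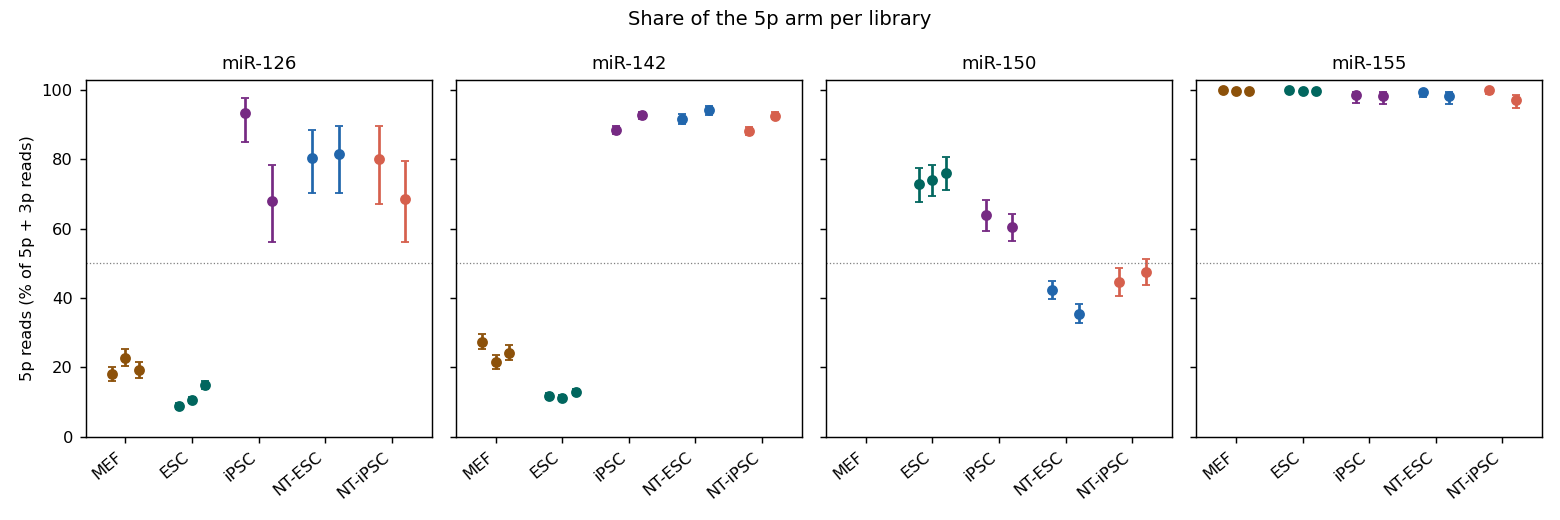
Reads of the 5p arm as a percentage of the reads of both arms (y axis) for 4 hairpins, with a point per library, grouped by cell type on the x axis, exact 95% binomial intervals as bars and a dotted line at 50%. For miR-126 and miR-142 all MEF and ESC libraries lie below the line and all 6 reprogrammed libraries above it. miR-150 is not drawn for MEFs, which had under 20 reads on its arms.

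The change of arm was not particular to miR-126 and miR-142. Between reprogrammed cells and ESCs, 69.6% of the 273 hairpins with at least 20 reads in each of these libraries had an adjusted p under 0.05 for the 5p share, and between reprogrammed cells and MEFs 65.7% of 233. Between MEFs and ESCs it was 0% of 241, a comparison in which no p below 0.1 was possible. Over the 226 hairpins with at least 20 reads in all 12 libraries, the median absolute change was 5.12 points between reprogrammed cells and ESCs and 0.664 points between MEFs and ESCs. In 38 of the 226 (16.8%) the major arm differed between reprogrammed cells and ESCs, 12 of them with a change from 3p to 5p as in miR-126 and miR-142 and 26 with the opposite change. Between MEFs and ESCs the major arm differed in 8 (3.54%). By the size of the change against ESCs, miR-142 ranked 5 and miR-126 ranked 13 of the 226 in reprogrammed cells, and 17 and 33 in MEFs. The reprogrammed libraries are also the set that stands apart in total reads and adaptor measures, and the part of these in the shares was not tested.

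**Figure D3:**
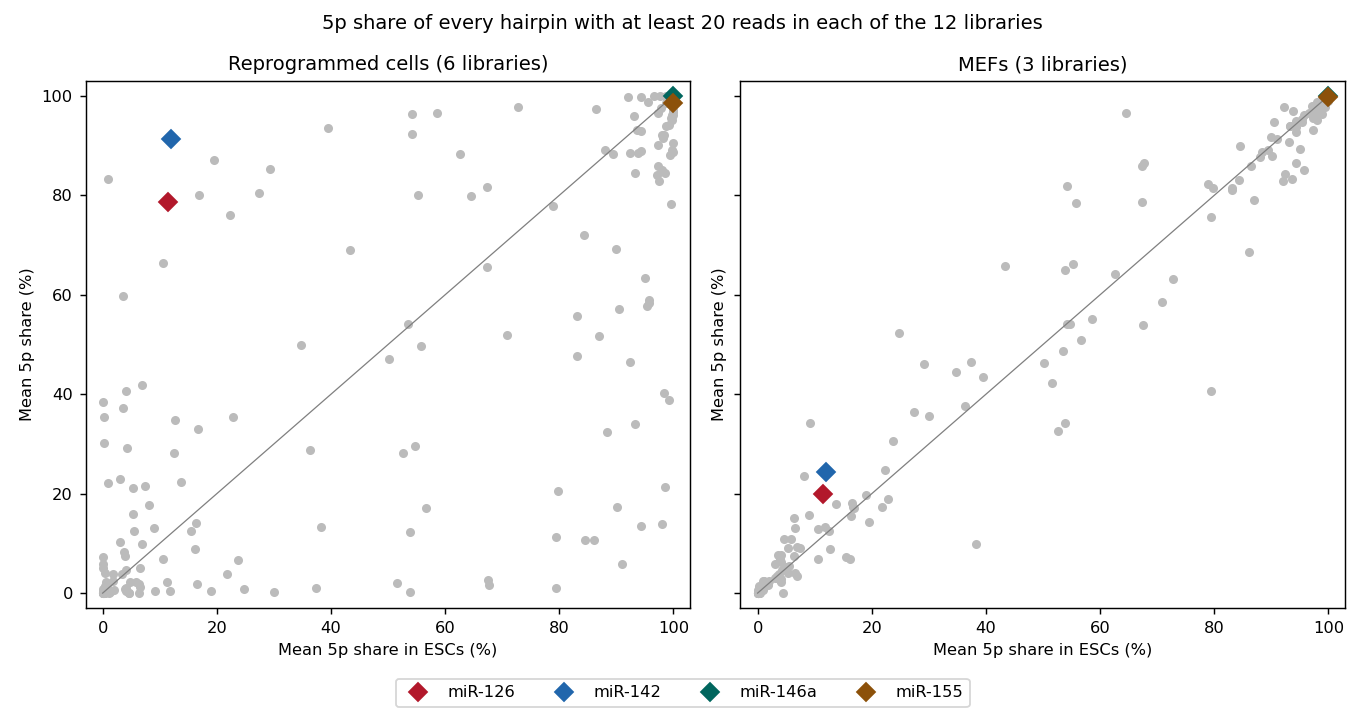
Mean 5p share (percent of the reads of both arms) of 226 hairpins in ESCs on the x axis, against reprogrammed cells (left) and MEFs (right) on the y axis, with the line of equal shares. The hairpins scatter widely in reprogrammed cells, where the median absolute change is 5.12 points, and lie close to the line in MEFs, where it is 0.664 points. miR-142 and miR-126 lie at the upper left in reprogrammed cells, and miR-146a and miR-155 lie in the upper right corner of both panels.

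miR-146a, a brake on immune signalling, was lower in all reprogrammed libraries than in MEFs and ESCs and differed among the reprogrammed types. miR-146a-5p had 2673, 2821 and 2444 reads in MEFs, 6006, 7440 and 4889 in ESCs, 834 and 766 in iPSCs, 2193 and 1929 in NT-ESCs and 2218 and 2040 in NT-iPSCs. Reprogrammed cells differed from ESCs by -2.45 (standard error 0.12, adjusted p = 5.7e-09), a level 4.95-fold higher in ESCs, and from MEFs by -1.50 (adjusted p = 3.1e-07). Type by type the difference from ESCs was -3.46 for iPSCs, -2.01 for NT-ESCs and -1.88 for NT-iPSCs, with adjusted p from 4.9e-09 to 8.1e-07. MEFs stood at -0.95 against ESCs (standard error 0.14, adjusted p = 9.9e-05), and at -0.31 with upper quartile scaling (adjusted p = 0.092). The 5p arm held at least 99.95% of the reads of the hairpin in every library, so no change of arm was seen there.

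Its paralog miR-146b-5p has the same seed and differs from miR-146a-5p by the substitutions G18A and U21C, counted from 1 at the 5′ end with the base of miR-146a-5p first. Reads under 18 nt were removed, so a read that begins at the annotated 5′ end reaches the substitution at position 18. Whether mismatches were allowed when reads were assigned is not given in the sources used here. The split between the pair is therefore still uncertain. miR-146b-5p, whose hairpin (chr19:46342762-46342870, plus strand) lies in an intron of Mfsd13a, was the more abundant in every library, with 5512 to 7521 reads in reprogrammed cells, 9870 to 12554 in MEFs and 14804 to 24898 in ESCs. Reprogrammed cells stood at -2.09 against ESCs in this miRNA (standard error 0.15, adjusted p = 1.1e-07) and at -1.57 against MEFs (adjusted p = 1.0e-06). The ratio of miR-146b-5p to miR-146a-5p reads was 4.30 ± 0.35 (SD, n = 3) in MEFs, 3.20 ± 0.16 (SD, n = 3) in ESCs, 3.43 ± 0.00132 (SD, n = 2) in NT-ESCs, 7.49 ± 0.98 (SD, n = 2) in iPSCs and, with n = 2, 2.68 ± 0.28 in NT-iPSCs. iPSCs thus had the highest ratio. For miR-146b-5p alone, NT-ESCs minus iPSCs was 0.33 (standard error 0.21, adjusted p = 0.29) and NT-iPSCs minus iPSCs 0.10 (standard error 0.21, adjusted p = 0.78).

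miR-150, the lymphocyte miRNA that represses c-Myb, was nearly absent from MEFs and present in all pluripotent libraries. miR-150-5p had 1, 1 and 4 reads in MEFs, 246, 293 and 250 in ESCs, 295 and 381 in iPSCs, 587 and 428 in NT-ESCs and 284 and 332 in NT-iPSCs. Its normalized reads were 111-fold higher in ESCs than in MEFs (95% counting interval 50.8 to 304) and 118-fold higher in reprogrammed cells than in MEFs (54.1 to 322). The difference of VST was -6.68 between MEFs and ESCs (standard error 0.37, adjusted p = 2.4e-08). Reprogrammed cells and ESCs overlapped, with a difference of 0.05 (standard error 0.32, adjusted p = 0.90).

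The 3p arm of miR-150, in contrast, was higher in all 6 reprogrammed libraries than in the ESCs. miR-150-3p had 0, 1 and 1 reads in MEFs, 92, 102 and 78 in ESCs, 166 and 250 in iPSCs, 800 and 782 in NT-ESCs and 353 and 369 in NT-iPSCs. Against a floor of 3 reads per MEF library, ESCs were at least 25.5-fold higher, and the bound for reprogrammed cells was at least 93.9-fold. The latter exceeded ESCs by 1.64 (standard error 0.46, adjusted p = 0.0067), a level 3.68-fold higher. The excess was 2.67 for NT-ESCs (adjusted p = 0.0018) and 1.62 for NT-iPSCs (adjusted p = 0.029), and for iPSCs it was 0.63, which did not pass (adjusted p = 0.36). The 5p share of miR-150 had a mean of 74.4% ± 1.73 over the 3 ESC libraries, 38.8% ± 4.91 (SD, n = 2) in NT-ESCs, 62.2% ± 2.55 (SD, n = 2) in iPSCs and, with n = 2, 46.0% ± 1.96 in NT-iPSCs. Reprogrammed cells thus stood at -25.4 points against ESCs (two-sided exact permutation test, p = 0.0238, adjusted p = 0.0342, lost without each of the same 7 libraries, with adjusted p up to 0.1004 and -27.7 to -22.7 points), a shift toward the 3p arm where miR-126 and miR-142 shifted toward the 5p arm.

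miR-155, made from the transcript Mir155hg in activated lymphocytes and macrophages, was highest in MEFs and lowest in reprogrammed cells. miR-155-5p had 8502, 8600 and 8011 reads in MEFs, 1549, 1892 and 1339 in ESCs, 259 and 251 in iPSCs, 348 and 240 in NT-ESCs and 293 and 317 in NT-iPSCs. The 3 levels were well apart. MEFs exceeded ESCs by 2.65 (standard error 0.14, adjusted p = 1.4e-08), a 6.24-fold higher level. Reprogrammed cells stood at -2.94 against ESCs (standard error 0.12, adjusted p = 8.6e-10) and at -5.59 against MEFs (adjusted p = 3.2e-12), which held a 47.9-fold higher level. Among the reprogrammed types no difference of miR-155-5p passed the threshold, the widest being 0.42 for NT-iPSCs against iPSCs (standard error 0.17, adjusted p = 0.093).

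The 3p arm of miR-155 had 9, 11 and 18 reads in MEFs, 1, 3 and 2 in ESCs, 4 and 4 in iPSCs, 2 and 4 in NT-ESCs and 0 and 9 in NT-iPSCs. MEFs held more reads than every other library except NT-iPSC replicate 52, which equalled the lowest MEF library. Against a floor of 3 reads per ESC library MEFs were at least 4.97-fold higher (VST difference 2.61, standard error 0.92, adjusted p = 0.022). That call was lost with TMM-type scaling (2.16, adjusted p = 0.050), with total miRNA reads as library size (1.80, adjusted p = 0.099) and without ESC replicate 2 or MEF replicate 15 (2.32 and 2.34, adjusted p = 0.068 in both). Reprogrammed cells stood at -2.63 against MEFs in this arm (standard error 0.80, adjusted p = 0.0088, limma). That difference missed the threshold with total miRNA reads as library size (-1.71, adjusted p = 0.064). The 5p arm held at least 97.2% of the reads of miR-155 in every library.

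miR-223, the miRNA of granulocytes, was highest in MEFs and close to 0 in ESCs. miR-223-3p had 54, 54 and 43 reads in MEFs, 0, 1 and 0 in ESCs, 6 and 8 in iPSCs, 11 and 9 in NT-ESCs and 8 and 9 in NT-iPSCs. The 3 sets did not overlap. Outside MEFs only NT-ESC replicate 71 reached 10 reads, so this arm passed the filter on reads only with the MEF libraries. Against 3 reads per ESC library MEFs were at least 19.8-fold higher, and reprogrammed cells at least 2.06-fold. The VST differences were 6.78 for MEFs against ESCs (adjusted p = 4.6e-07), 3.63 for reprogrammed cells against ESCs (standard error 0.47, adjusted p = 2.3e-05) and -3.15 for reprogrammed cells against MEFs (adjusted p = 5.9e-05). The macrophage marker miR-511-3p had the same order of groups, with VST means of 9.91 in MEFs, 3.90 in ESCs and 5.13 in reprogrammed cells, and its part in the levels of miR-223 was not tested.

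Reads of miR-223-5p numbered 38, 45 and 27 in MEFs, 1, 1 and 0 in ESCs, 2 and 1 in iPSCs, 16 and 1 in NT-ESCs and 5 and 23 in NT-iPSCs. MEFs exceeded ESCs at least 14.4-fold. The difference between reprogrammed cells and ESCs was 2.04 with overlapping libraries (standard error 0.75, adjusted p = 0.025). It rested on few reads and was lost with voom (1.77, adjusted p = 0.055), without ESC replicate 4 (1.28, adjusted p = 0.15), NT-ESC replicate 71 (1.54, adjusted p = 0.054), NT-iPSC replicate 52 (1.69, adjusted p = 0.063) or iPSC replicate 62 (1.93, adjusted p = 0.053). The 5p share of miR-223 was 41.8% ± 3.47 (SD, n = 3) in MEFs, and too few other libraries reached 20 reads for a comparison.

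**Figure D4:**
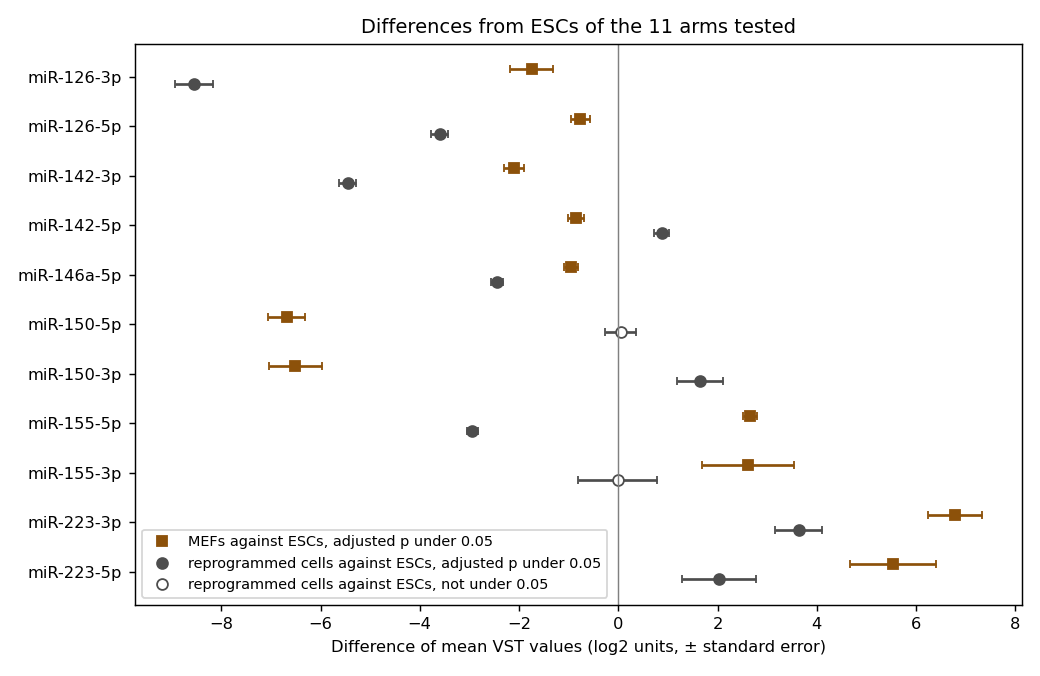
Difference of mean VST from ESCs (x axis, log2 units, bars ± standard error) of the 11 tested arms (y axis), with squares for MEFs, circles for reprogrammed cells and filled symbols for a limma adjusted p under 0.05. miR-126-3p has the most negative value in reprogrammed cells at -8.55, and miR-155-5p is above 0 in MEFs and below 0 in reprogrammed cells.

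The scaling of the libraries bears on the comparison of MEFs with ESCs. The median difference of all 732 miRNAs was 0 with the deposited size factors, -0.43 with TMM-type scaling, -0.80 with total miRNA reads and 0.55 with upper quartile scaling. The share of calls that were higher in MEFs was 49.5%, 37.8%, 29.6% and 60.4% in turn. No call of a member between MEFs and ESCs changed direction under these scalings. For reprogrammed cells against ESCs the medians were 0.24, 0.08, 0.36 and 0.45, small beside the differences of miR-126, miR-142-3p, miR-146a-5p and miR-155-5p. For reprogrammed cells against MEFs the share of higher calls was 54.5%, and 65.6% with total miRNA reads.

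The difference from ESCs was also taken for each reprogrammed type. In iPSCs 7 of the 11 members passed the threshold, against 75.8% of the 732 miRNAs, in NT-ESCs 7 against 75.8%, and in NT-iPSCs 9 against 77.6%. Both arms of miR-126, miR-142-3p, miR-146a-5p and miR-155-5p were lower and miR-223-3p was higher than in ESCs in each of the 3 types. The difference of miR-126-3p was -8.88 for iPSCs, -8.46 for NT-ESCs and -8.31 for NT-iPSCs, and that of miR-155-5p was -3.17, -2.90 and -2.75. The 3 comparisons share the ESC libraries.

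Fewer members differed between the reprogrammed types. NT-ESCs differed from iPSCs in 4 of 11 members against 25.7% of all miRNAs, NT-iPSCs from iPSCs in 1 of 11 against 26.5%, and NT-iPSCs from NT-ESCs in 2 of 11 against 12.8%. The share of these calls that were higher in the first-named type was 48.9%, 50.5% and 43.6% of all miRNAs called, and 25.1%, 21.0% and 20.8% with total miRNA reads as library size. With TMM-type scaling the last share was 34.2%. Both arms of miR-142 were lower in NT-ESCs than in iPSCs and NT-iPSCs. miR-146a-5p was lower in iPSCs than in both types made by nuclear transfer, by 1.45 from NT-ESCs (adjusted p = 0.00035) and 1.58 from NT-iPSCs (adjusted p = 9.2e-05). The fibroblast markers had the same order, with 21255 to 23208 summed CPM in iPSCs, 60432 to 61293 in NT-ESCs and 61501 to 71272 in NT-iPSCs, and all 8 were higher in NT-ESCs and in NT-iPSCs than in iPSCs at an adjusted p under 0.05. Their part in the level of miR-146a-5p was not tested. The difference of miR-150-3p between NT-ESCs and iPSCs (2.04, adjusted p = 0.042) was lost without any 1 of the 4 libraries (1.75 to 2.33, adjusted p from 0.083 to 0.19) and with upper quartile scaling (2.11, adjusted p = 0.054). The difference of miR-142-5p between NT-iPSCs and NT-ESCs was lost without NT-ESC replicate 71 (1.19, adjusted p = 0.058), and that of miR-142-3p with only these groups in the fit (1.75, adjusted p = 0.056).

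The other miRNAs of the same tissues did not form a single pattern. Of 9 further blood-cell miRNAs in the table, the arms of miR-144, miR-451, miR-486, miR-342 and miR-511, 7 were tested. Against ESCs, 5 were higher in MEFs and 0 lower, with a median difference of 1.91 beside 0 for all miRNAs, of which 39.1% were higher and 39.9% lower. In reprogrammed cells 4 were higher and 3 lower, with a median of 0.66 beside 0.24 for all miRNAs, of which 44.0% were higher and 38.0% lower. The red blood cell miRNA miR-486-5p, named after its values were seen, was higher in MEFs than in ESCs by 4.24 (adjusted p = 5.2e-08). The red blood cell miRNA miR-451 was higher in reprogrammed cells, with 30 to 74 reads per library against 4 to 8 in ESCs (2.35, standard error 0.36, adjusted p = 0.00010). miR-144-5p, from the same cluster, was lower, with 5 to 17 reads against 42 to 54 (-2.61, standard error 0.37, adjusted p = 5.1e-05). Its other arm, miR-144-3p, did not pass the filter on reads and had 3 to 12 reads in reprogrammed libraries against 0 in ESCs. miR-451 and both arms of miR-144 had at most 74 reads in any library.

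Of 9 vessel-linked miRNAs, the arms of miR-139, miR-218, miR-296 and miR-130a, all were tested. In MEFs 4 were higher than in ESCs and 0 lower, with a median difference of 0.35, where 79.0% of all miRNAs passed. In reprogrammed cells 6 were higher and 2 lower, with a median of 1.82, where 82.0% of all miRNAs passed and their median was 0.24. The 8 of 9 called there were thus near the share of all miRNAs. miR-296-5p rose from 70 to 113 reads in ESCs to 1868 to 4149 in reprogrammed cells (4.38, standard error 0.23, adjusted p = 7.1e-09), opposite to both arms of miR-126. Its other arm, miR-296-3p, was lower in the mean of the reprogrammed types (-0.98, standard error 0.30, adjusted p = 0.0094, limma). The mean 5p share of miR-296 went from 3.64% in ESCs to 59.8% in reprogrammed cells, toward the 5p arm as in miR-126. miR-218-5p fell from 153 to 208 reads to 19 to 32 (-3.33, standard error 0.18, adjusted p = 8.7e-09).

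The members were also described by the miRNAs whose deposited values ran most closely with theirs across the 12 libraries. Pearson's r across libraries that fall into 5 cell types reflects the steps between types, and it is given here without a test. Among the members, the arms of miR-126 ran together (r = 0.978), as did those of miR-150 (r = 0.964) and miR-223 (r = 0.853), whereas those of miR-142 did not (r = -0.497). Both arms of miR-126 ran with miR-142-3p (r = 0.941 for 3p and 0.942 for 5p). Outside the members, miR-126-3p was most like miR-30e-5p (r = 0.993), miR-872-5p (0.986) and miR-194-5p (0.985). miR-126-5p was most like miR-18a-5p (0.994), miR-20a-5p (0.990) and miR-872-5p (0.990). miR-142-3p was most like miR-7b-5p (0.983), miR-1198-5p (0.978) and miR-148b-3p (0.968), and miR-142-5p like miR-340-5p (0.922), miR-298-5p (0.922) and miR-758-5p (0.896).

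For miR-146a-5p the closest were miR-196a-1-3p (0.971), miR-1843-5p (0.959) and miR-215-5p (0.958). miR-150-5p ran with the pluripotency marker miR-290-3p (0.990), miR-20b-3p (0.988) and miR-363-3p (0.987), and miR-150-3p with miR-191-5p (0.991), miR-92b-5p (0.976) and miR-295-5p (0.976). miR-155-5p was most like miR-218-5p (0.995), miR-28-5p (0.995) and miR-30b-5p (0.992). miR-155-3p had no close match, its highest being miR-21-3p (0.866), miR-135a-1-3p (0.818) and miR-26a-2-3p (0.810). For miR-223-3p they were miR-98-3p (0.971), miR-1a-3p (0.958) and miR-181a-5p (0.951), and for miR-223-5p let-7c-5p (0.908), miR-132-5p (0.893) and let-7b-5p (0.882).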

How the data were processed

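Small RNA of 18 to 30 nt from 12 libraries was sequenced on the Solexa platform. Tags of low quality, contaminants and adaptors were removed by the authors, who counted reads per miRNA, normalized them with DESeq size factors and applied its variance stabilizing transformation. The deposited table holds the result for 1042 miRNAs on a log2 scale. The submitters' notes name the build mm8. The aligner and the package version are not given in the sources used here.

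The transformation was inverted, which gave whole reads for 100% of the nonzero values within 0.05 read (largest deviation 0.00582), and values recomputed from these reads differed from the deposited ones by at most 2.99e-06. The reads served for depth, filters, shares and other scalings. Groups were compared on the deposited log2 values with limma 3.58.1 (R 4.3.3), with a mean per cell type, a trend and no covariate, over 732 miRNAs that reached 10 reads in 2 or more libraries. The reprogrammed mean is that of the 3 type means. Arm shares were compared by two-sided exact permutation tests over libraries, with Benjamini-Hochberg adjustment over all hairpins with at least 20 reads on both arms together in every library compared. Single-library shares have exact Clopper-Pearson intervals. Where every library of a group had at most 3 reads, a fold is a lower bound against 3 reads per library. Alternatives were TMM-type, upper quartile and total-read scaling, log2 of normalized reads plus 1, voom, other filters, only the groups compared and each library left out. The limma fit, but not the permutation test, was checked on simulated data.

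All arms of the 6 hairpins are named. Of each related list, the 2 miRNAs with the widest difference between reprogrammed cells and ESCs are named, and for each member the 3 miRNAs with the highest correlation. The members and lists were chosen with earlier results of these data known. Hairpin positions are from GENCODE M21 (GRCm38) and sequences from RefSeq (GRCm38.p6). Other steps used matplotlib 3.10.9, scipy 1.17.1, pandas 2.3.3 and numpy 2.4.6 under Python 3.11.15.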

Additional observations from a re-analysis of the deposited data

Results flagged for a closer look

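The difference from ESCs differed between reprogrammed types for miR-142 and miR-146a-5p and, less firmly, for miR-150-3p, as tested by limma on the contrast between the types themselves, with 2 libraries in each. The difference of the effects equals the difference between the types, since the ESC libraries are shared. For NT-ESCs against iPSCs it was -1.46 for miR-142-3p (adjusted p = 0.0020), -1.04 for miR-142-5p (adjusted p = 0.0041), 1.45 for miR-146a-5p (adjusted p = 0.00035) and 2.04 for miR-150-3p (adjusted p = 0.042). That of miR-150-3p was lost without any 1 of the 4 libraries (1.75 to 2.33, adjusted p from 0.083 to 0.19) and with upper quartile scaling (2.11, adjusted p = 0.054), at a similar size. For NT-iPSCs against iPSCs it was 1.58 for miR-146a-5p (adjusted p = 9.2e-05). For NT-iPSCs against NT-ESCs it was 1.75 for miR-142-3p (adjusted p = 0.0045) and 1.31 for miR-142-5p (adjusted p = 0.0056). The first was lost with only these groups in the fit (adjusted p = 0.056) and the second without NT-ESC replicate 71 (1.19, adjusted p = 0.058).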

How the results depend on the processing

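The calls of miR-126-3p, miR-142-3p, miR-146a-5p and miR-155-5p between reprogrammed cells and ESCs kept their direction and their side of the threshold under every alternative that tested them. Of the members called, the counts moved by over 1.5 times only between reprogrammed types. For NT-iPSCs against iPSCs the count of 1 was 2 with total miRNA reads, 3 with voom and 1 to 2 with a library left out. For NT-iPSCs against NT-ESCs the count of 2 was 4 with voom and 1 to 3 with a library left out. The 5p shares of miR-126 and miR-142 in reprogrammed cells against ESCs missed the threshold without each of 7 of the 9 libraries. They kept it without iPSC replicate 62 or NT-iPSC replicate 51. The differences over all 9 were 64.3 to 69.4 and 78.9 to 80.05 points (exact permutation test, adjusted p from 0.0497 to 0.1004). Every p was the lowest that the remaining libraries allow, so these calls turn on their number and on the other hairpins tested. The same held for miR-150 (-28.4 to -22.7 points), for which these settings were chosen after seeing the data. Differences that changed sign were all of members that had not passed. For reprogrammed cells against ESCs, miR-150-5p was -0.12 with TMM-type scaling, and miR-155-3p was 0.16 with log2 of normalized reads, 0.0913 with total reads and 0.14 with upper quartile scaling. With total reads, NT-ESCs against iPSCs gave -0.23 for miR-126-5p and -0.0941 for miR-155-5p. NT-iPSCs against iPSCs gave -0.26 for miR-142-3p, -0.28 for miR-142-5p, -0.50 for miR-150-5p, -0.12 for miR-155-5p and -0.0788 for miR-223-3p, and NT-iPSCs against NT-ESCs gave -0.0224 for miR-126-3p, -0.0547 for miR-146a-5p and -0.0266 for miR-155-5p. That scaling moved the median of all miRNAs by -0.35, -0.51 and -0.16 in these comparisons. With a library left out, miR-150-5p ran from -0.0150 to 0.11 and miR-155-3p from -0.77 to 0.74 for reprogrammed cells against ESCs. For NT-ESCs against iPSCs the ranges were -0.62 to 1.46 for miR-126-3p, -0.10 to 0.35 for miR-126-5p, -0.83 to 0.21 for miR-155-3p and -0.17 to 2.81 for miR-223-5p. For NT-iPSCs against iPSCs they were -0.47 to 1.61 for miR-126-3p, -0.0793 to 0.65 for miR-142-3p, -0.14 to 0.22 for miR-150-5p and -3.37 to 1.18 for miR-155-3p. For NT-iPSCs against NT-ESCs they were -0.30 to 0.60 for miR-126-3p, -3.06 to 1.49 for miR-155-3p and -0.28 to 2.70 for miR-223-5p. The cause was not tested. Without iPSC replicate 63, which held 24 reads of miR-126-3p, that arm passed in NT-ESCs against iPSCs (1.46, adjusted p = 0.029) and NT-iPSCs against iPSCs (1.61, adjusted p = 0.014). Without NT-iPSC replicate 52, miR-155-3p passed in NT-iPSCs against iPSCs (-3.37, adjusted p = 0.0094) and against NT-ESCs (-3.06, adjusted p = 0.046). For NT-iPSCs against iPSCs, miR-126-5p passed with total reads (-0.78, adjusted p = 0.033), and miR-150-3p (0.99) and miR-223-5p (2.72) with voom. With voom miR-150-5p passed in NT-ESCs against iPSCs (0.67) and NT-iPSCs against NT-ESCs (-0.63), as did miR-150-3p in the latter (-1.05), also with only these groups in the fit (-1.05). With 2 libraries per type, the remaining library is then assumed to vary like the other groups. No paired analysis was possible because the cell types carry different replicate numbers in the labels. Depth limits miR-146a-3p, miR-155-3p and both arms of miR-223, which had under 60 reads in every library.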
